A study of Homo sapiens with 6 samples.

Results

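Iron uptake, storage and export were described through 10 genes, taken by symbol from the count tables: TFRC, SLC11A2, FTH1, FTL, NCOA4, SLC40A1, ACO1, IREB2, FBXL5 and CP. All 10 were among the 27192 genes listed, and 8 had enough counts to be tested. The cells were U87, an established human glioblastoma line, transfected 2 times 24 hours apart and harvested 24 hours after the second round. The siLINC00152 group received 2 siRNAs against the long noncoding RNA LINC00152 as a mixture, so their effects cannot be told apart, and the siGL2 group received a control siRNA described as nonspecific. Each group held 3 libraries of polyA RNA, lettered A, B and C, and no other genotype or agent is named.

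Animal cells take up iron mainly as transferrin, which the transferrin receptor TFRC carries into endosomes, and the metal then crosses the endosomal membrane through the divalent metal transporter SLC11A2. Iron that is not used is stored in shells of ferritin heavy and light chains (FTH1, FTL), is freed when NCOA4 delivers ferritin to the lysosome, and leaves the cell through ferroportin (SLC40A1), helped by ferroxidases such as ceruloplasmin (CP). The balance is set largely after transcription: the iron regulatory proteins ACO1 (IRP1) and IREB2 (IRP2) bind hairpins called iron-responsive elements in messenger RNAs, and FBXL5 marks IREB2 for degradation when iron is plentiful. Binding in a 5′ UTR is known to block translation, and binding in the TFRC 3′ UTR is known to protect the transcript from decay.

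The hairpins are shown because they are the sequences through which this circuit acts. Annotated transcripts (GENCODE release 29, GRCh38) were searched on the transcript strand for 17 letters: a bulged C, 5 bases, the loop CAGTGN and 5 bases that pair with the first 5, G-U pairs allowed. Such letters stood in the 3′ UTR of TFRC 4 times and in the 5′ UTR of FTH1, FTL and SLC40A1 once each. The other 6 members held none, which says only that these letters are not in their annotated transcripts. Of EPAS1 and CDC14A, reported elsewhere to hold an iron-responsive element, CDC14A held 1 such hairpin and EPAS1 held none. The CDC14A hairpin was in 1 of its 12 annotated coding transcripts. The search can therefore miss reported elements, and a member without a match may still hold one. Of 19940 protein-coding genes, 1.54% held the letters anywhere, 0.186% in a 5′ UTR and 0.822% in a 3′ UTR. In the stretches of 30 bases below, read 5′ to 3′, capitals mark the bulged C and the loop of 6 bases.
TFRC chr3:196050978-196051007, minus strand: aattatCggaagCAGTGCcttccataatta
TFRC chr3:196050574-196050603, minus strand: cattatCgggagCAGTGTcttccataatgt
TFRC chr3:196050509-196050538, minus strand: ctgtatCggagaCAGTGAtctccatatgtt
TFRC chr3:196050462-196050491, minus strand: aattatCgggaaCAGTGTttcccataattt
FTH1 chr11:61967573-61967602, minus strand: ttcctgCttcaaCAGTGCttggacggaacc
FTL chr19:48965335-48965364, plus strand: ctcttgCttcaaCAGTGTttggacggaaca
SLC40A1 chr2:189580660-189580689, minus strand: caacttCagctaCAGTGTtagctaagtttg

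The 4 TFRC hairpins were present in 3 of its 5 annotated coding transcripts, the FTH1 hairpin in 9 of 10, the FTL hairpin in its single transcript and the SLC40A1 hairpin in 1 of 5. The search fixed every loop letter but the last. Counts per gene do not separate transcripts with and without a hairpin.

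Libraries held 41963120 to 43713662 counts after siLINC00152 and 42139419 to 46234763 after siGL2. LINC00152 (CYTOR, ENSG00000222041.11, chromosome 2, 87454781 to 87636740, plus strand) had 114, 112 and 109 counts in siLINC00152 libraries A to C against 650, 608 and 776 in siGL2 libraries A to C; 20.7% of its 75-base stretches are shared with 7 further genes, 13.1% with MIR4435-2HG. The 6 glial and glioma markers summed to 8890 to 9190 CPM (counts relative to the library's TMM-scaled total) after siLINC00152 and 11300 to 12000 CPM after siGL2, nearly all of it VIM and CD44, whereas GFAP, S100B and SOX2 had 12 or fewer counts in every library. Library A of siGL2 stood apart from siGL2 B and C (chi-square per degree of freedom 10.9 and 13.7, against 2.91 between B and C). Library A of siLINC00152 did so to a smaller degree (5.79 and 5.23, against 3.07 between B and C). Across all tested genes, 64.3% passed at an adjusted p under 0.05 (edgeR quasi-likelihood test, Benjamini-Hochberg), 32.2% higher and 32.2% lower after siLINC00152. No label says that replicates came from separate cultures, and each p-value therefore reflects the spread among these 6 libraries alone, part or all of which may be technical.

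Of the 8 tested iron genes, 4 were higher after siLINC00152 (SLC11A2, ACO1, FBXL5 and NCOA4), 1 was lower (TFRC) and 3 did not pass (FTH1, FTL and IREB2). The share that passed, 5 of 8, is close to the 64.3% of all tested genes, so it is not a result about iron genes. Their median size of change, without sign, was 0.23 on the log2 scale against 0.28 over all tested genes, and 1 of the 8, TFRC, passed with a change of at least 1.5-fold, as did 20.0% of all tested genes. TFRC lay just past that fold, and fell short of it without siLINC00152 C (log2 fold change −0.58) or siGL2 A (−0.56), which leaves 0 of the 8. NCOA4 is the least stable of the 5 calls. The share of all tested genes whose groups do not overlap is not given here. Groups that are apart, below, are therefore not a result about iron genes.

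**Figure D1:**
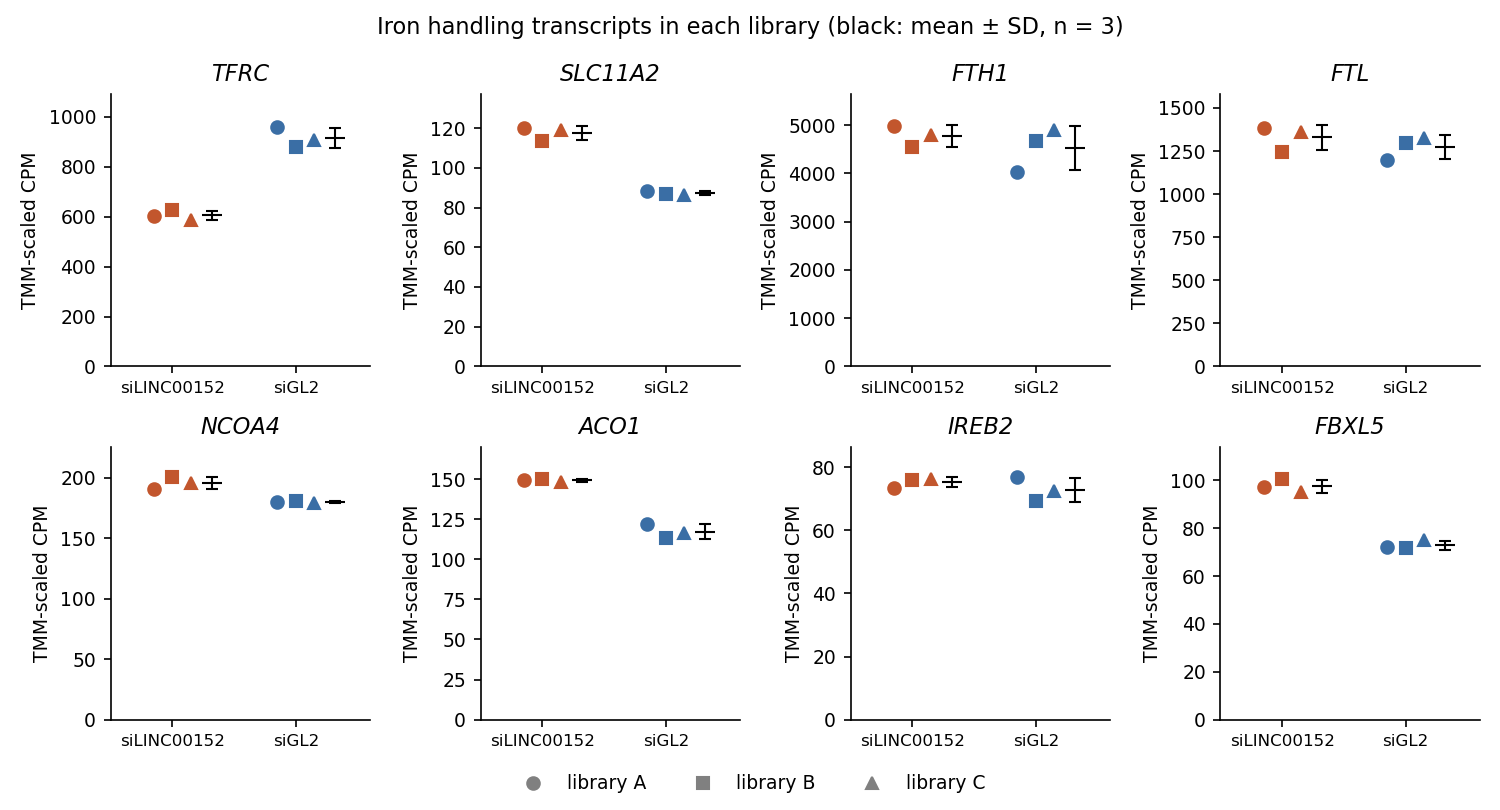
TMM-scaled CPM (vertical axes start at 0) of the 8 tested genes in each library, siLINC00152 in orange and siGL2 in blue, with symbols for libraries A to C and black bars for the mean ± SD. The groups are apart for TFRC, SLC11A2, NCOA4, ACO1 and FBXL5 and overlap for FTH1, FTL and IREB2. The share of all tested genes with groups apart is not given, so this describes the points only.

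Transcripts of the receptor and of the endosomal transporter of iron entry changed in opposite directions. TFRC (ENSG00000072274.12, chromosome 3, 196027183 to 196082189, minus strand), the receptor for iron-loaded transferrin, had 24756, 26277 and 25006 counts in siLINC00152 libraries A to C against 41583, 38043 and 42971 in siGL2 libraries A to C. Scaled to library size by TMM, these were 602.8, 625 and 587 CPM after siLINC00152 and 958, 881 and 909 CPM after siGL2. Every siLINC00152 library was below every siGL2 library. TFRC stood at 605 ± 19.2 CPM after siLINC00152 and 916 ± 39.4 CPM after siGL2 (SD, n = 3 each), 66.1% of the siGL2 level. The log2 fold change was −0.60 ± 0.05 (SE), with a 95% interval of −0.69 to −0.50 (edgeR adjusted p = 3.58e-10). By mean CPM, TFRC ranked 199 among 14078 tested genes after siLINC00152 and 84 after siGL2, and 1411 genes that passed fell by more. In bulk RNA, fewer cells that express a gene and less RNA per cell cannot be told apart.

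SLC11A2 (ENSG00000110911.15, chromosome 12, 50979401 to 51028566, minus strand), which moves ferrous iron out of endosomes, had 4921, 4769 and 5075 counts in siLINC00152 libraries A to C against 3838, 3750 and 4087 in siGL2 libraries A to C. In CPM, the siLINC00152 libraries lay at 119.8, 113 and 119 and the siGL2 libraries at 88.5, 86.8 and 86.4, with no overlap. The means were 117 ± 3.48 CPM after siLINC00152 and 87.2 ± 1.08 CPM after siGL2 (SD, n = 3 each). SLC11A2 rose 1.35-fold, by 0.43 ± 0.05 on the log2 scale (SE; 95% interval 0.34 to 0.52; edgeR adjusted p = 4.94e-08). A rise larger than this was found in 2074 other genes that passed.

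Ferritin transcripts, the most abundant of the 10 in CPM, did not pass the test. FTH1 (ENSG00000167996.15, chromosome 11, 61959718 to 61967660, minus strand), the heavy chain that oxidises iron as it enters the shell, had 204986, 190736 and 204332 counts in siLINC00152 libraries A to C against 174552, 202035 and 231797 in siGL2 libraries A to C. In CPM these were 4991, 4539 and 4798 after siLINC00152 and 4023, 4677 and 4901 after siGL2. The siGL2 library A was the lowest of the 6, and the groups overlapped. The log2 fold change of 0.08 ± 0.06 (SE) had a 95% interval of −0.05 to 0.20 (edgeR adjusted p = 0.290). It was −0.0028 without siGL2 A (edgeR adjusted p = 0.956) and 0.13 without siGL2 C, where it passed (edgeR adjusted p = 0.0499).

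FTL (ENSG00000087086.14, chromosome 19, 48965301 to 48966878, plus strand), the light chain that helps the iron core form, had 56925, 52381 and 57821 counts in siLINC00152 libraries A to C against 51932, 56092 and 62737 in siGL2 libraries A to C. At 1386, 1247 and 1358 CPM after siLINC00152 and 1197, 1298 and 1326 CPM after siGL2, it too had its lowest value in siGL2 A, and the groups overlapped. Its log2 fold change was 0.06 ± 0.05 (SE; 95% interval −0.04 to 0.17; edgeR adjusted p = 0.282), and it was −0.0049 with library size alone. The 95% intervals leave out rises above 0.20 for FTH1 and above 0.17 for FTL on the log2 scale.

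Ferritin counts carry a limit of annotation. Of all 75-base stretches in FTH1 transcripts, 51.7% are shared with 14 further genes, 12 of them pseudogenes; BEST1 alone shares 44.5%, and it lies on the opposite strand over 62.4% of FTH1 exonic bases. The sources used here do not say whether reads were counted by strand. BEST1 itself had 30, 26 and 34 counts in siLINC00152 libraries A to C and 82, 63 and 75 in siGL2 libraries A to C, and the pseudogene FTH1P3 had 7 to 11 counts after siLINC00152 and 11 to 13 after siGL2. In FTL, 9.45% of 75-base stretches also occur in 2 pseudogenes.

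NCOA4 (ENSG00000266412.5, chromosome 10, 46005088 to 46030714, minus strand), the receptor that carries ferritin to the lysosome, had 7841, 8424 and 8344 counts in siLINC00152 libraries A to C against 7809, 7811 and 8483 in siGL2 libraries A to C. On the CPM scale the siLINC00152 libraries lay at 190.9, 200.5 and 196 and the siGL2 libraries at 179.97, 181 and 179, which do not overlap. The difference was small, 1.09-fold or 0.12 ± 0.04 on the log2 scale (SE; 95% interval 0.03 to 0.21; edgeR adjusted p = 0.0173). The call was lost with library size alone (0.05; edgeR adjusted p = 0.276) and without siLINC00152 B (0.10), siLINC00152 C (0.12), siGL2 B (0.12) or siGL2 C (0.12), where the edgeR adjusted p ranged from 0.0543 to 0.0794.

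The export genes SLC40A1 and CP had 8 or fewer counts in every library. SLC40A1 (ENSG00000138449.10, chromosome 2, 189560579 to 189583758, minus strand), the only iron exporter known in vertebrates, had 0 counts in each of the 6 libraries. A count of 0 allows up to 3 counts, or 0.0704 to 0.0730 CPM in the siLINC00152 libraries and 0.0634 to 0.0694 CPM in the siGL2 libraries, for counting error only. The rules of read counting are not stated, so few counts need not mean few transcripts. CP (ENSG00000047457.13, chromosome 3, 149162410 to 149222055, minus strand), the ferroxidase that oxidises exported iron for loading onto transferrin, had 4, 4 and 3 counts in siLINC00152 libraries A to C against 0, 3 and 8 in siGL2 libraries A to C. The groups overlap and no fold is given. Of CP exonic bases, 19.4% overlap HPS3 on the opposite strand, a gene with 2384 to 2558 counts after siLINC00152 and 3393 to 3831 after siGL2.

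Among the regulators, ACO1 and FBXL5 rose and IREB2 did not pass. ACO1 (ENSG00000122729.18, chromosome 9, 32384603 to 32454769, plus strand), which works as a cytosolic aconitase when it holds an iron-sulfur cluster and as IRP1 when it does not, had 6131, 6299 and 6309 counts in siLINC00152 libraries A to C against 5302, 4879 and 5512 in siGL2 libraries A to C. In CPM the siLINC00152 libraries lay close together at 149, 149.9 and 148 and the siGL2 libraries lower at 122, 113 and 117, with no overlap. ACO1 rose 1.27-fold, by 0.35 ± 0.04 on the log2 scale (SE; 95% interval 0.25 to 0.44; edgeR adjusted p = 9.94e-07).

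IREB2 (ENSG00000136381.12, chromosome 15, 78437431 to 78501456, plus strand), or IRP2, which is controlled mainly through the stability of its protein, had 3015, 3191 and 3251 counts in siLINC00152 libraries A to C against 3334, 2988 and 3428 in siGL2 libraries A to C. At 73.4, 75.9 and 76.3 CPM after siLINC00152 and 76.8, 69.2 and 72.5 CPM after siGL2, the groups overlapped. Its log2 fold change was 0.05 ± 0.05 (SE; 95% interval −0.06 to 0.15; edgeR adjusted p = 0.419), and −0.02 with library size alone.

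FBXL5 (ENSG00000118564.14, chromosome 4, 15604539 to 15681679, minus strand), the F-box protein that senses iron and targets IREB2, had 4000, 4219 and 4049 counts in siLINC00152 libraries A to C against 3131, 3092 and 3545 in siGL2 libraries A to C. The siLINC00152 libraries, at 97.4, 100.4 and 95.1 CPM, were all above the siGL2 libraries, at 72.2, 71.6 and 74.95 CPM. FBXL5 rose 1.34-fold, by 0.42 ± 0.05 on the log2 scale (SE; 95% interval 0.33 to 0.52; edgeR adjusted p = 9.44e-08). FBXL5 acts in a ubiquitin ligase with SKP1, CUL1 and RBX1. Of these, the scaffold CUL1 fell by 0.12 ± 0.04 (SE; edgeR adjusted p = 0.0234), a call lost without any of the 3 siLINC00152 libraries or without siGL2 C, and the others did not pass (SKP1 0.04 ± 0.05, RBX1 0.03 ± 0.05). In CUL1, 10.9% of exonic bases overlap a gene of the opposite strand.

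**Figure D2:**
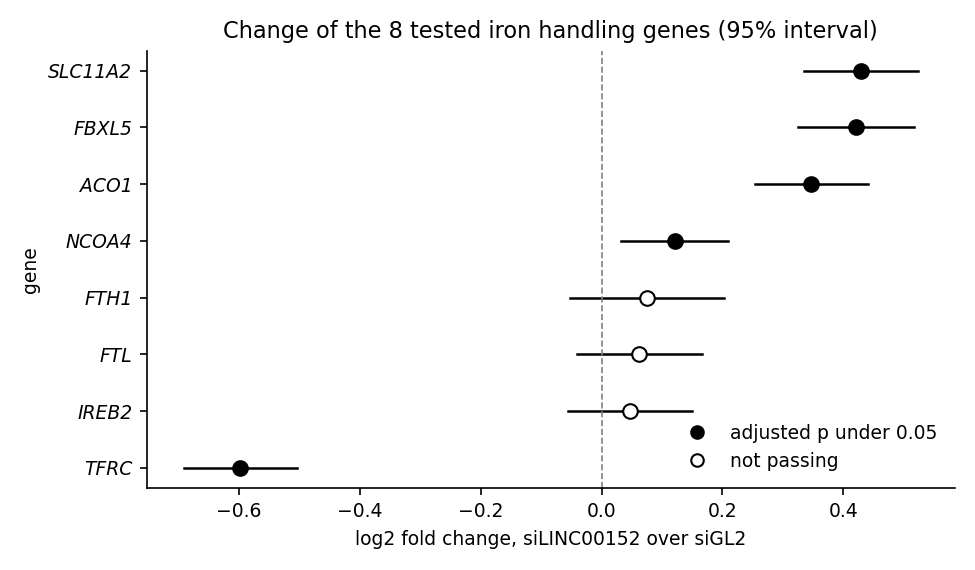
Log2 fold change of each tested gene, siLINC00152 over siGL2 (horizontal axis), with its 95% interval as a line; filled points passed at an adjusted p under 0.05. TFRC lies at −0.60, 4 genes lie above 0 with intervals that leave out 0, and FTH1, FTL and IREB2 have intervals that include 0.

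Levels of different genes were set side by side as TMM-scaled CPM per kilobase of the longest annotated transcript. After siLINC00152 the order was FTH1 (3886 ± 185), FTL (1515 ± 84.0), TFRC (118 ± 3.75), NCOA4 (55.2 ± 1.35), FBXL5 (28.8 ± 0.789), SLC11A2 (27.0 ± 0.801), ACO1 (19.97 ± 0.120), IREB2 (11.8 ± 0.250) and CP (0.0188 ± 0.0032; SD, n = 3). After siGL2 the same order held, at 3689 ± 371, 1451 ± 77.7, 179 ± 7.70, 50.7 ± 0.206, 21.5 ± 0.533, 20.1 ± 0.249, 15.7 ± 0.625, 11.5 ± 0.605 and 0.0170 ± 0.0182 CPM per kilobase (SD, n = 3). Neighbours among the 8 tested genes did not overlap in either group, and CP, at 8 or fewer counts, cannot be separated from SLC40A1 at this depth in either group. FBXL5 and SLC11A2 were the closest of the genes with ample counts, at a ratio of means of 1.07 in both groups, and with the union of exons as length ACO1 came before SLC11A2. Ferritin thus stood far above the receptor per length: FTL exceeded TFRC 12.8-fold after siLINC00152 and 8.10-fold after siGL2, as ratios of means.

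**Figure D3:**
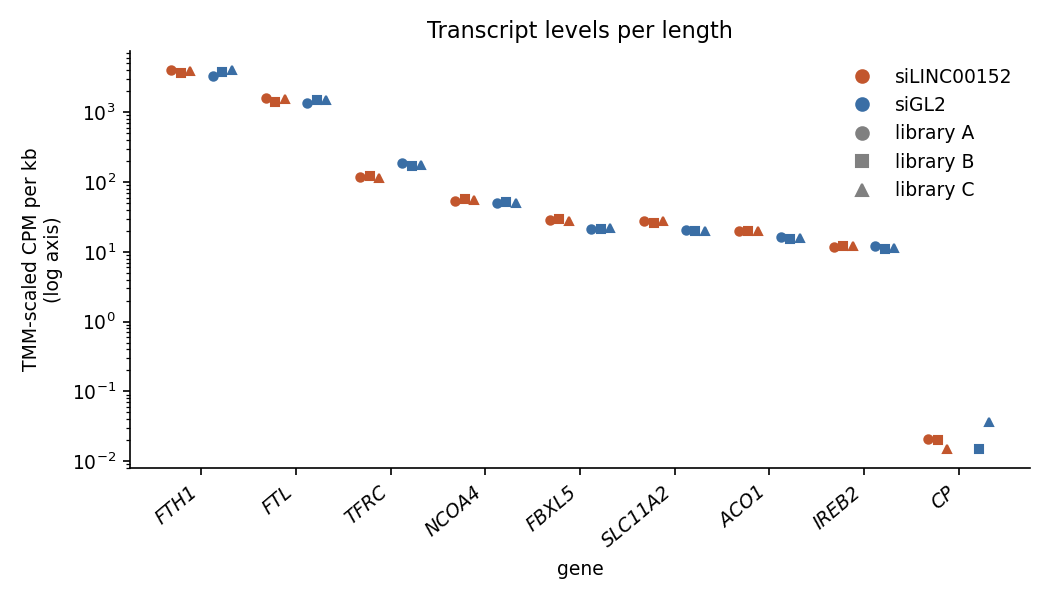
TMM-scaled CPM per kilobase of the longest annotated transcript (vertical log axis) for 9 genes in each library, siLINC00152 in orange left of siGL2 in blue. Values of 0 are not drawn, which leaves out SLC40A1 and CP in siGL2 A. FTH1 and FTL lie at 1363 or above, TFRC lies between 115 and 188, and the others apart from CP lie between 10.9 and 56.5.

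Ratios of counts within a library do not depend on how libraries are scaled. TFRC to FTH1, a receptor set against a store, was 0.121, 0.138 and 0.122 in siLINC00152 libraries A to C against 0.238, 0.188 and 0.185 in siGL2 libraries A to C. All 3 siLINC00152 values were below all siGL2 values, and the mean was 0.127 ± 0.0094 against 0.204 ± 0.0297 (SD, n = 3 each; log2 difference −0.68; exact permutation test, two-sided p = 0.1, adjusted over 3 ratios 0.15). IREB2 to ACO1, the 2 iron regulatory proteins, was 0.492, 0.507 and 0.515 after siLINC00152 against 0.629, 0.612 and 0.622 after siGL2, also without overlap (log2 difference −0.30; exact permutation p = 0.1, adjusted 0.15). The heavy to light chain ratio, FTH1 to FTL, was 3.60, 3.64 and 3.53 after siLINC00152 against 3.36, 3.60 and 3.69 after siGL2, and the groups overlapped (log2 difference 0.02; exact permutation p = 0.9, adjusted 0.9). With 3 libraries against 3, this test cannot give a p below 0.1.

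**Figure D4:**
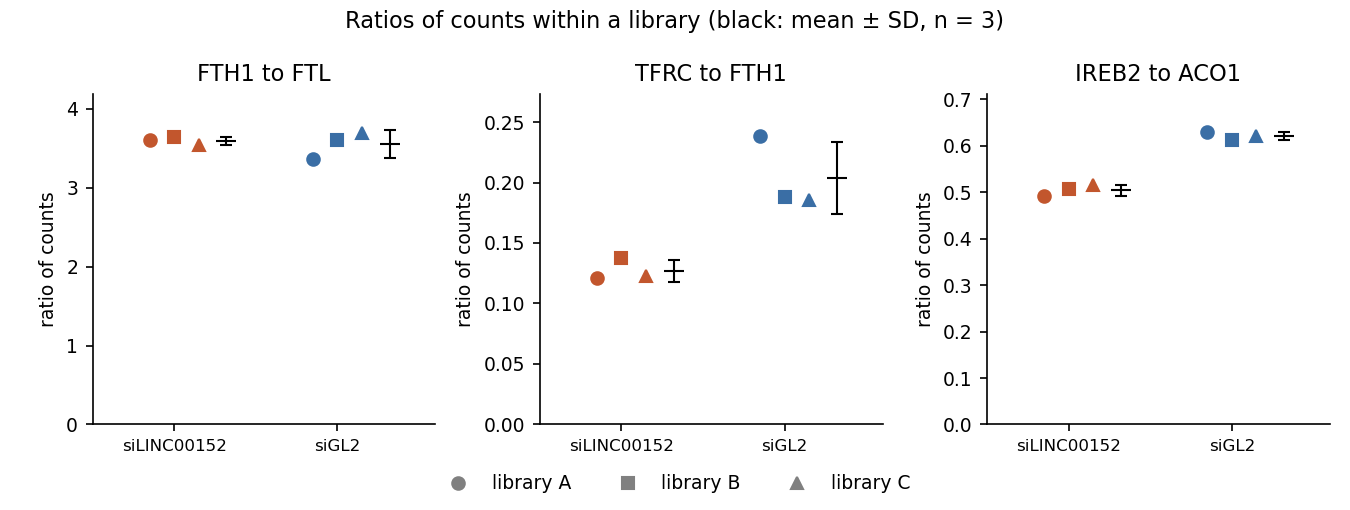
Ratios of raw counts within each library (vertical axes start at 0), siLINC00152 in orange and siGL2 in blue, with symbols for libraries A to C and black bars for the mean ± SD. The groups are apart for TFRC to FTH1 and IREB2 to ACO1 and overlap for FTH1 to FTL.

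Around these 10 genes, 88 further symbols of iron biology in 7 lists were read, of which 83 were listed and 66 tested. Of the 66, 17 rose, 30 fell and 19 missed the threshold, where 32.2% of all tested genes lay in each direction. The median change of the 66 was −0.06 on the log2 scale, and that of all tested genes was −0.0011. Among genes of iron entry and reduction, 2 of 8 tested rose and 3 fell. STEAP3, the endosomal ferrireductase that works between TFRC and SLC11A2, rose to 404 ± 4.17 CPM after siLINC00152, against 275 ± 6.05 CPM after siGL2 (SD, n = 3; log2 fold change 0.56 ± 0.04, SE; edgeR adjusted p = 3.32e-10). The plasma membrane reductase CYBRD1 fell to 56.4 ± 3.33 CPM, against 94.5 ± 2.06 CPM after siGL2 (SD, n = 3; −0.74 ± 0.05, SE; edgeR adjusted p = 6.25e-11). STEAP1 (−0.87 ± 0.06) and STEAP2 (−0.24 ± 0.06) fell as well. The zinc and iron transporters SLC39A14 (−0.04 ± 0.04) and SLC39A8 (−0.05 ± 0.05) did not pass. TF, which encodes transferrin itself, and the second receptor TFR2 had too few counts to be tested. Of STEAP1, 13.6% of 75-base stretches also occur in STEAP1B, and 9.27% of those of STEAP3 in its antisense gene STEAP3-AS1.

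Of 7 tested chaperones and partners of storage and export, 2 rose, 2 fell and 3 did not pass. PCBP2, an RNA-binding protein that also hands iron to ferritin, fell by 0.33 ± 0.04 on the log2 scale (SE; edgeR adjusted p = 6.46e-07), whereas its relative PCBP1 did not pass (−0.07 ± 0.04). The prion protein gene PRNP fell by 0.68 ± 0.05, and APP (0.26 ± 0.04) and BMP6 (0.51 ± 0.14), a ligand that in the liver induces hepcidin, rose. PCBP2 shares 28.9% of its 75-base stretches with 5 further genes. The other ferroxidase of export, HEPH, and the hormone hepcidin (HAMP) had too few counts to be tested.

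In heme handling, 4 of 16 tested genes rose, 8 fell and 4 did not pass. HMOX1, which breaks heme down and frees its iron, fell to 244 ± 10.97 CPM after siLINC00152, against 409 ± 16.6 CPM after siGL2 (SD, n = 3; log2 fold change −0.75 ± 0.05, SE; edgeR adjusted p = 1.83e-11). BLVRA, which acts on biliverdin, the product of that reaction, fell by 0.56 ± 0.06. FECH, which inserts iron into heme in the last step of its synthesis, rose by 0.55 ± 0.05.

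Of 20 tested genes of mitochondrial iron and iron-sulfur cluster assembly, 6 rose, 9 fell and 5 did not pass. The scaffold ISCU (0.44 ± 0.05, SE), the carrier ISCA1 (0.39 ± 0.05) and ferredoxin reductase FDXR (0.54 ± 0.06) rose. HSCB, a cochaperone of cluster transfer, fell by 1.29 ± 0.10, and 20.6% of its exonic bases overlap CHEK2 on the opposite strand. In the cytosolic pathway, which delivers clusters to proteins that include ACO1, 2 of 10 tested genes rose, 7 fell and 1 did not pass. GLRX3 (−0.50 ± 0.05), FAM96A (−0.44 ± 0.06), known to act on ACO1 maturation, and CIAO1 (−0.38 ± 0.04) fell, and MMS19 rose by 0.42 ± 0.05. Of other transcripts reported elsewhere to hold an iron-responsive element, EPAS1 rose by 0.38 ± 0.05, and CDC14A (0.08 ± 0.08) did not pass. The edgeR adjusted p of the genes of these 7 lists named as rising or falling, apart from CUL1, was 0.0042 or lower.

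**Figure D5:**
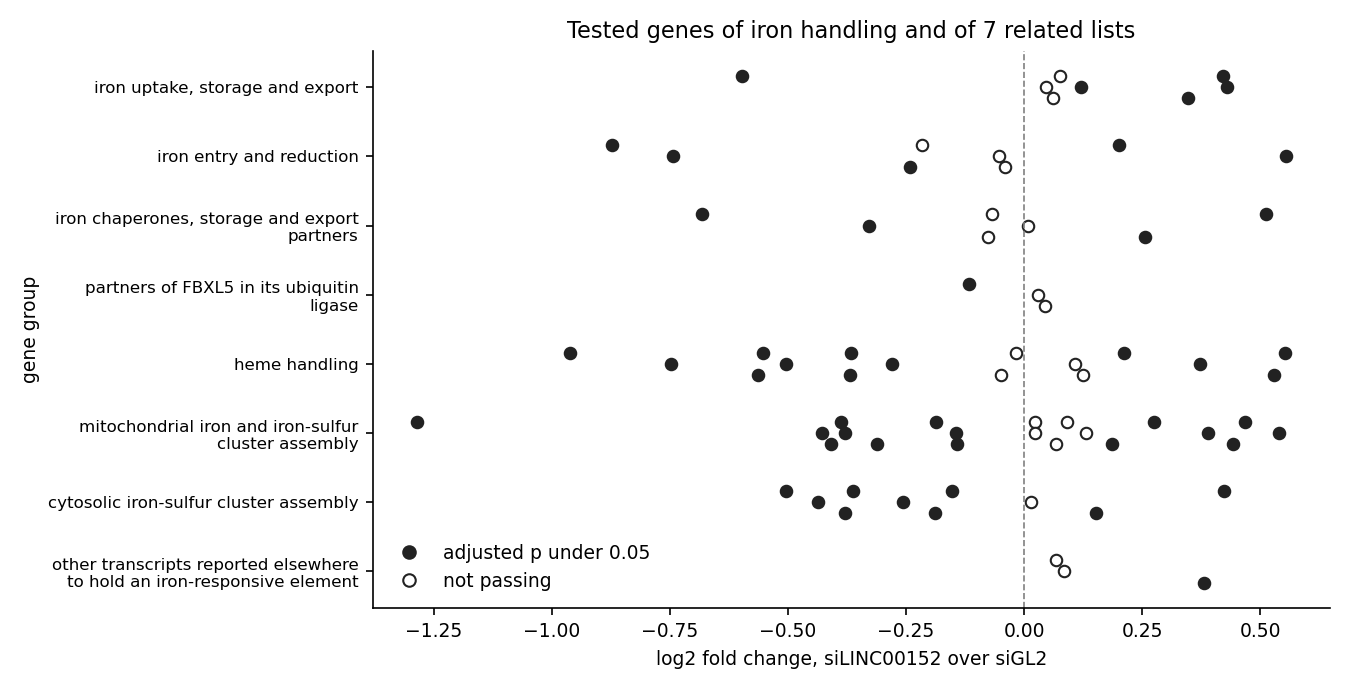
Log2 fold change of each tested gene, siLINC00152 over siGL2 (horizontal axis), for the iron uptake, storage and export genes in the top row and for 7 related lists below; filled points passed at an adjusted p under 0.05. Every list of more than 3 tested genes has members on both sides of 0, and HSCB at −1.29 is the lowest point.

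Markers of other cell types were read beside these changes. The 4 macrophage and microglia markers summed to 300 to 325 CPM after siLINC00152 and 354 to 358 CPM after siGL2, with CD68 and CSF1R both lower after siLINC00152 (log2 fold change −0.15 ± 0.04 and −0.76 ± 0.06, SE; edgeR adjusted p = 0.0048 and 7.44e-10), PTPRC at 4 or fewer counts in every library and AIF1 at 0. The 3 neuronal markers summed to 51.4 to 56.9 CPM after siLINC00152 and 75.1 to 77.6 CPM after siGL2, almost all of it SNAP25 and SYT1, with RBFOX3 at 1 count in siLINC00152 A and 0 elsewhere. Hepatocyte, erythroid, oligodendrocyte and endothelial markers each summed to 2.6 CPM or less in every library, with TTR, HBA1, HBB and MOG at 0. VIM and CD44, the main part of the glial and glioma sum, also passed as lower after siLINC00152. The part of these markers, and of siGL2 A, in the iron gene results was not tested beyond leaving out that library.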

How the data were processed

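PolyA RNA was made into directional paired-end libraries, per the labels' protocols. The deposited values are raw whole-number counts per gene symbol, 1 table per library. Per the submitters' processing notes, the build hg38 and the tools HISAT, HTSeq, DESeq and bcl2fastq are named, with no versions or settings. The sources used here do not say how multiply matching reads and strand were treated or with which annotation, and reads of genes with copies or antisense partners may be misassigned.

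From these counts, R 4.3.3 and edgeR 4.0.16 kept 14078 of 27192 genes (filterByExpr, minimum count 10, minimum total 15), scaled libraries by TMM (0.975 to 0.979 for siLINC00152, 1.02 to 1.03 for siGL2) and tested siLINC00152 against siGL2 (robust quasi-likelihood F-test, 6 libraries, no covariates) with Benjamini-Hochberg adjustment at 0.05. The standard error is the size of the log2 fold change divided by the square root of F. DESeq2 1.42.0, other scalings, no filter, no robust estimation, the replicate letter as a block and leaving out each library were alternatives. Python 3.11.15 and matplotlib 3.10.9 were used for annotation and plots. The edgeR fit was checked on simulated counts, which had the same spread between libraries for every gene. The other steps were not checked on simulated data. Gene positions, lengths and hairpins were read from GENCODE release 29 transcripts (GRCh38, another name of hg38), with no genome sequence. No pair of replicates agreed within sampling noise (chi-square per degree of freedom 2.91 to 13.7).

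The members and lists were chosen with earlier results of these data known. All members are named, and of each of the 7 lists up to 4 tested genes with the smallest p, apart from some that are not reported here; SLC39A8, SLC39A14, PCBP1, TF, TFR2, HEPH and HAMP were named after their values were seen.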

Additional observations from a re-analysis of the deposited data

How the results depend on the processing

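TFRC, SLC11A2, ACO1 and FBXL5 kept their direction and their call in each of 12 other settings, at log2 fold changes of −0.66 to −0.56, 0.36 to 0.46, 0.28 to 0.38 and 0.35 to 0.44. The count of iron genes that passed was 5 of 8 with DESeq2, RLE factors, no filter on low counts, no robust estimation and the replicate block, 4 with library size alone, and 4 to 5 when 1 library was left out. NCOA4 was the call lost, and FTH1 the call gained without siGL2 C; when a library was left out, 3 to 4 were higher and 1 was lower. Over all tested genes, 9058 passed, 8436 with DESeq2, 9144 with library size alone (3755 higher and 5389 lower, median log2 fold change −0.07), 9155 with the replicate block, and 8294 to 9336 with 1 library left out (4155 to 4666 higher and 4133 to 4670 lower). Same-letter libraries had correlations of their deviations of −0.0129 to 0.0818, none above 0.1, and the letters were not used to pair libraries; siLINC00152 A and C, but not B, correlated best with their own letter, a hint from the data only. The log2 difference of FTH1 to FTL was −0.0224 to 0.0459 with 1 library left out and reversed, to −0.0224, without siGL2 A; TFRC to FTH1 gave −0.74 to −0.56 and IREB2 to ACO1 −0.32 to −0.28. These ratio settings were chosen after seeing the data. With the union of exons as length, ACO1 ranked 6 and SLC11A2 ranked 7 in siGL2. With 50-base stretches, the share found in other genes was 57.4% for FTH1, 18.3% for FTL, 21.1% for CP, 4.53% for NCOA4, 2.13% for IREB2, 0.546% for SLC11A2, 0.539% for ACO1 and 0.0874% for TFRC. Of 312 values of 26 list genes with the smallest p under other settings, 308 kept the call, and 4, all CUL1, lost it. SKP1 and RBX1 passed in none of these settings but did not always keep their sign. The log2 fold change of SKP1 was 0.04 in the main test, but −0.0231 when scaled by library size only and −0.0198 once siGL2 A was dropped. That of RBX1 was 0.03 in the main test, but −0.0369 when scaled by library size only and −0.0139 once siLINC00152 A was dropped. Except where stated, the cause of a changed call was not tested.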
